A study of Rattus norvegicus with 29 samples.

Results

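The 10 genes described here belong to the p53 stress response or to the Gadd45 and Polo-like kinase families: Cdkn1a, Mdm2, Ccng1, Bax, Phlda3, Tp53inp1, Gadd45a, Gadd45b, Plk2 and Plk3. Members were the rows of the deposited table whose only gene symbol in the platform annotation was one of these names. That gave 11 rows of 27342 in all, 2 for Bax and 1 for each other gene. A row is an Affymetrix transcript cluster, a set of probes for a single transcript unit.

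The livers came from male Crl:CD Sprague-Dawley rats, 6 to 7 weeks old, which received PMCol (pentamethylchromanol, a chromanol related to vitamin E) or its vehicle, 1% methylcellulose in water, by gavage each day. After 7 doses there were 6 vehicle rats and 6 rats on 2000 mg/kg, killed on day 8. After 28 doses there were 6 vehicle rats, 6 rats on 200 mg/kg and 5 rats on 2000 mg/kg, killed on day 29. The labels name no genetic change in any group. Each rat gave 1 array of left-lobe RNA, so every value below is a separate animal, and the number of arrays limits the precision. The 29 arrays include no rats on the low dose for 7 doses, so the doses can be compared only on day 29.

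The transcription factor p53 is kept low in resting cells because Mdm2, which p53 itself switches on, marks it for destruction. DNA damage and other stresses release p53, which then raises genes that halt the cell cycle, repair DNA or prepare cell death. Gadd45 proteins and the kinases Plk2 and Plk3 are p53 targets in some settings and also answer growth factors, cytokines or nuclear receptors without it.

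Each value is a log2 signal from which the row's own median over the 29 arrays had been taken. It shows how a rat differs from the others and not how abundant a transcript is, so genes are not ranked by abundance and the tissue cannot be checked against absolute marker levels. Array medians ran from -0.02 to 0.03. A change is a log2 difference ± SE from a limma fit over all 29 rats. Its p was adjusted by the Benjamini-Hochberg method over every row of the table, and a gene rose or fell where this was under 0.05. The comparisons within day 29 share rats and are not independent of each other.

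After 7 doses of 2000 mg/kg, 6 of the 10 genes rose (Gadd45b, Plk3, Plk2, Gadd45a, Tp53inp1 and Mdm2) and 0 fell, against 9.32% of all rows that rose and 9.32% that fell (18.6% in all). After 28 doses of 2000 mg/kg 4 of 10 rose (Plk3, Ccng1, Mdm2 and Plk2) and 0 fell, against 12.1% and 9.55% (21.6% in all). After 28 doses of 200 mg/kg 3 of 10 rose (Plk3, Ccng1 and Plk2) and 0 fell, against 1.37% and 1.42% (2.78% in all). The treated and vehicle values did not overlap for 5, 1 and 2 of the 10 genes in these comparisons, against 11%, 11.4% and 1.51% of all rows. The median change over the members was 0.41, 0.03 and 0.42, and over all rows -0.0049, 0.0025 and 0.0033. Plk2 and Plk3 passed in all 3 comparisons with vehicle.

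**Figure D1:**
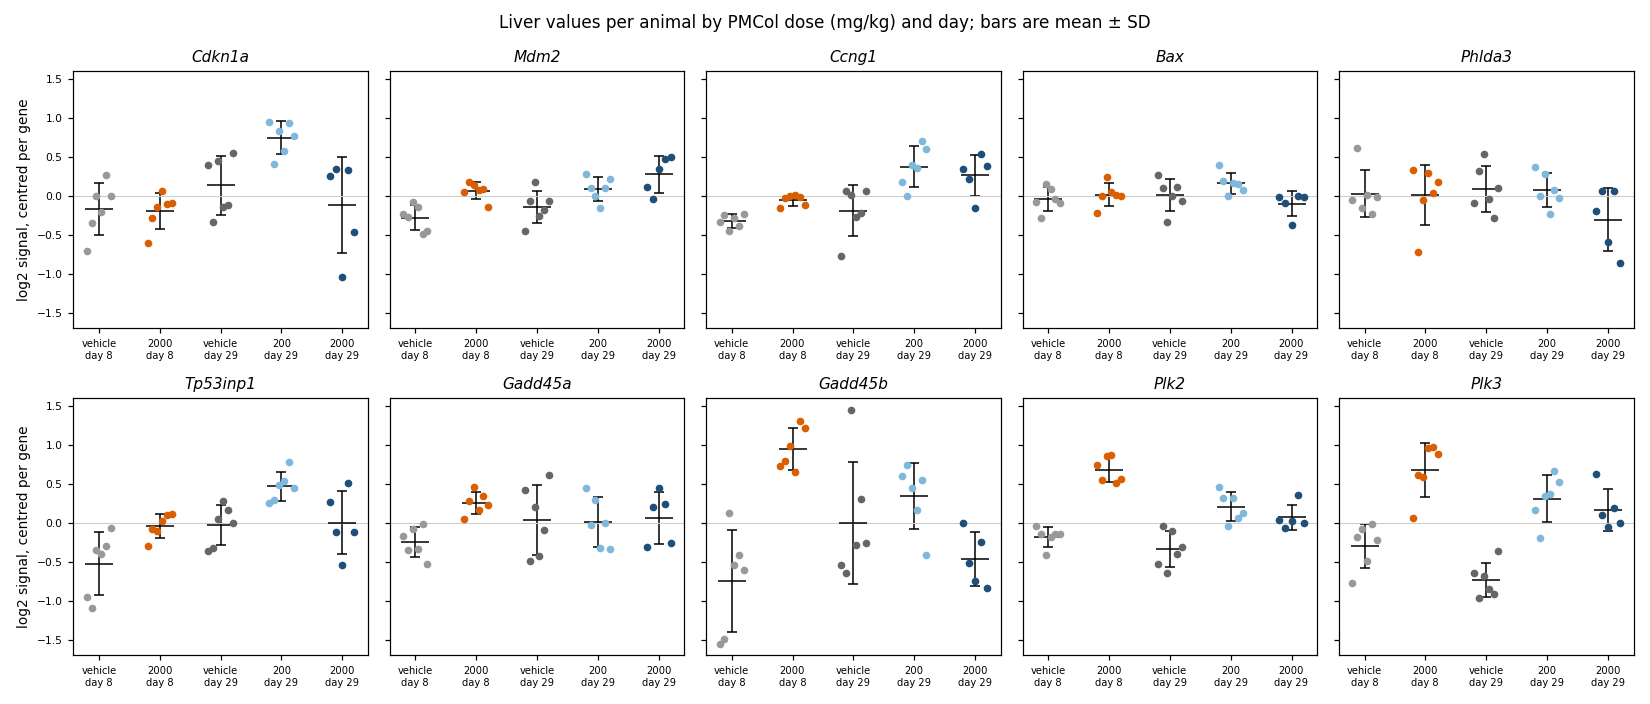
Log2 signal of the 10 genes, centred on each row's median over 29 arrays, on the y axis, in every rat of the 5 groups (dose in mg/kg and day) on the x axis; points are rats and bars the mean ± SD. For Plk3 the 6 vehicle livers of day 29 lie between -0.95 and -0.36, below every treated liver of that day.

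Stretches of 250 bases upstream of the annotated starts of Plk2 and Plk3 are shown because both genes rose in each comparison with vehicle. They are RefSeq sequences of assembly GRCr8, 5′ to 3′ on the gene's strand: chr2:43702286-43702535 (plus strand) for Plk2 and chr5:135848901-135849150 (minus strand) for Plk3. Capitals mark TGACG on either strand, the core of the site that CREB and ATF factors bind.
Plk2: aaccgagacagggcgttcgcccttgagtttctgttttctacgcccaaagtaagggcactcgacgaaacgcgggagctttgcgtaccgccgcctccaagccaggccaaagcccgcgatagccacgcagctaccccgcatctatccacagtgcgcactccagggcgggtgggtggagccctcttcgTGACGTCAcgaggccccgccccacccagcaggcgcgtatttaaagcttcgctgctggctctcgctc
Plk3: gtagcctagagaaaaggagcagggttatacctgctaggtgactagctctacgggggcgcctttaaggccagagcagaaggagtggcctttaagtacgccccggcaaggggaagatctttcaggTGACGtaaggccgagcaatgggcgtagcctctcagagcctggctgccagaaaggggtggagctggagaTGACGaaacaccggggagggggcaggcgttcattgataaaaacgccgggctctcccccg
In Plk2 overlapping matches on opposite strands, with first bases 66 and 63 before the start, form the palindrome TGACGTCA, which 1.59% of 33469 RefSeq windows of this length hold. In Plk3 the first bases of the matches lie 127 and 59 before the start. TGACG occurs in 5 of the 8 member windows (Cdkn1a, Gadd45a, Mdm2, Plk2 and Plk3) and in 18.2% of all windows.

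Windows of Ccng1 and Gadd45a are shown because they hold a match to the p53 consensus decamer, a single unit of a p53 site, here in capitals and searched on both strands. They lie at chr10:25684877-25685126 (minus strand) and chr4:97486800-97487049 (minus strand) of the same assembly.
Ccng1: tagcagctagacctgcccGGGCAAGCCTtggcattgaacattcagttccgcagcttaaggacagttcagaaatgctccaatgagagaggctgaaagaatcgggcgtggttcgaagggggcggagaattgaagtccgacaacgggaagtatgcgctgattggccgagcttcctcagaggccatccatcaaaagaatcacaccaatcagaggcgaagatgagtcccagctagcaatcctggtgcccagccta
Gadd45a: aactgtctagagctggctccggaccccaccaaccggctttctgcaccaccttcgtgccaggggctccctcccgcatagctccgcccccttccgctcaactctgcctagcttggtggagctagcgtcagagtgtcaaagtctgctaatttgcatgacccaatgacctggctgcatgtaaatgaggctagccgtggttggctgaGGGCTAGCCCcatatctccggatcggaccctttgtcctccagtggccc
The first bases of the matches lie 232 and 48 before the start. Cdkn1a was the other of 3 of 8 member windows with the decamer, which 6.64% of all windows hold. Its match begins 201 bases before the transcript start that the window table uses and 89 before the first annotated base of the gene. The windows of Cdkn1a, Mdm2 and Gadd45b reach into the annotated span of their genes, by 112, 250 and 250 of 250 bases, and are not printed. TATAAA, the NF-kB site and the CArG box were found in 0 of 8 member windows and in 12.9%, 6.33% and 1.5% of all windows. A match is a string of letters, not a measured binding site.

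Plk3, a kinase that responds to stress and growth factors, rose at both doses and on both days. On day 8 vehicle livers ran from -0.77 to -0.0045 (median -0.20) and livers on 2000 mg/kg from 0.07 to 0.97 (median 0.75). On day 29 vehicle livers ran from -0.95 to -0.36 (median -0.76) and livers on 200 mg/kg from -0.20 to 0.67 (median 0.36). The 5 livers on 2000 mg/kg for 28 doses measured 0.62, 0.10, -0.06, 0.19 and 0.00. No treated group overlapped its vehicle group. Plk3 rose by 0.97 ± 0.16 on day 8 (adjusted p = 3.74e-05), a fold of 1.96. On day 29 it rose by 0.90 ± 0.16 at 2000 mg/kg (adjusted p = 0.000157) and by 1.04 ± 0.16 at 200 mg/kg (adjusted p = 0.000209). The doses differed by -0.14 ± 0.16 (95% interval -0.48 to 0.19, adjusted p = 0.671). From day 8 to day 29 the high-dose effect changed by -0.07 ± 0.23 (95% interval -0.54 to 0.39, adjusted p = 0.922).

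Plk2, a related stress-responsive kinase, was highest after 7 doses of 2000 mg/kg. Day 8 vehicle livers ran from -0.41 to -0.04 (median -0.14) and treated livers from 0.51 to 0.88 (median 0.65). Day 29 vehicle livers ran from -0.63 to -0.04 (median -0.34) and livers on 200 mg/kg from -0.03 to 0.47 (median 0.23). The 5 high-dose livers of day 29 measured 0.05, -0.06, 0.03, 0.36 and 0.00. Values did not overlap with vehicle on day 8 or at 200 mg/kg, while 1 of the 5 high-dose livers of day 29 lay within the vehicle range. Plk2 rose by 0.86 ± 0.10 on day 8 (adjusted p = 2.04e-07), a fold of 1.81. On day 29 it rose by 0.41 ± 0.10 at 2000 mg/kg (adjusted p = 0.0044) and by 0.54 ± 0.10 at 200 mg/kg (adjusted p = 0.00156). The change of the high-dose effect between days, -0.45 ± 0.14, did not pass (adjusted p = 0.124).

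Plk1 and Plk4, the family members of mitosis and centriole duplication, did not pass against vehicle. Plk1 had 0.10 ± 0.05 on day 8 and 0.0056 ± 0.06 on day 29 at 2000 mg/kg (adjusted p = 0.233 and 0.961). Plk4 had 0.07 ± 0.04 and 0.10 ± 0.04 (adjusted p = 0.295 and 0.104), and was higher at 2000 than at 200 mg/kg by 0.14 ± 0.04 (adjusted p = 0.0427). Of 20 proliferation genes 2 rose and 1 fell on day 8 and 4 rose and 1 fell on day 29 at 2000 mg/kg. That was 15% and 25% of them, near the 18.6% and 21.6% of all rows. Tyms, thymidylate synthase, rose by 0.63 ± 0.11 and 0.38 ± 0.11, and Tk1, thymidine kinase, by 0.31 ± 0.07 and 0.36 ± 0.07. Top2a fell by 0.21 ± 0.07 on day 8, and Mcm5 fell by 0.14 ± 0.05 on day 29.

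Gadd45b, which binds the stress kinase MAP3K4 and is known to be raised in liver by the receptor CAR and by TNF, had the largest change of the members on day 8. Day 8 vehicle livers ran from -1.54 to 0.13 (median -0.57) and treated livers from 0.66 to 1.30 (median 0.90), without overlap. Day 29 vehicle livers ran from -0.64 to 1.45 (median -0.27) and livers on 200 mg/kg from -0.41 to 0.74 (median 0.50). The high-dose livers of day 29 measured 0.00, -0.51, -0.74, -0.24 and -0.83. All 3 groups of day 29 overlapped, and vehicle replicate 3 of day 29 was the highest of all 29 livers. Gadd45b rose by 1.69 ± 0.29 on day 8 (adjusted p = 7.93e-05), a fold of 3.22. On day 29 it had -0.47 ± 0.30 at 2000 mg/kg (adjusted p = 0.305) and 0.34 ± 0.29 at 200 mg/kg (adjusted p = 0.704).

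From day 8 to day 29 the high-dose effect on Gadd45b fell by 2.16 ± 0.42 (adjusted p = 0.0144, limma interaction), the only one of the 10 genes to pass. Of all rows 0.775% passed, 0.472% as rises and 0.304% as falls. Without vehicle day 29 replicate 3 the change on day 29 was -0.18 in place of -0.47, and the change between days was -1.87 and still passed. The vehicle livers had means of -0.74 ± 0.65 (SD, n = 6) on day 8 and 0.0077 ± 0.78 (SD, n = 6) on day 29. Their difference, 0.75 ± 0.29, did not pass (adjusted p = 0.155). It passed when vehicle day 29 replicates 1 and 2 were both left out (adjusted p = 0.0468), but not without any single rat (lowest adjusted p = 0.0675). Between the vehicle groups limma called 0 of the 10 genes, 3 had an unadjusted p under 0.05, and 2.73% of all rows passed, 0.962% as rises and 1.77% as falls. Their values did not overlap for 0 of the 10 genes, against 1.25% of all rows.

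Gadd45a, a classical p53 target that binds PCNA, rose on day 8. Day 8 vehicle livers ran from -0.52 to -0.0097 (median -0.25) and treated livers from 0.05 to 0.47 (median 0.26), without overlap. After 28 doses vehicle livers ran from -0.48 to 0.62 (median 0.06) and livers on 200 mg/kg from -0.34 to 0.45 (median -0.01). The high-dose livers of day 29 measured -0.30, 0.21, 0.45, 0.24 and -0.25, and the groups of day 29 overlapped. Gadd45a rose by 0.50 ± 0.17 on day 8 (adjusted p = 0.0328). The call was lost without vehicle replicate 2, 4 or 6 or without 2000 mg/kg replicate 2, 3, 5 or 6, with adjusted p up to 0.0793. On day 29 it had 0.03 ± 0.17 at 2000 mg/kg and -0.03 ± 0.17 at 200 mg/kg (adjusted p = 0.94 and 0.974). The change between days, -0.47 ± 0.24, did not pass (adjusted p = 0.36).

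Gadd45g, the third paralog, was no member of the list, and fell where Gadd45a and Gadd45b rose, on day 8 at 2000 mg/kg. It also fell on day 29. On day 8 the vehicle mean was 0.18 ± 0.28 (SD, n = 6), against -0.55 ± 0.28 (SD, n = 6) after treatment. On day 29 the vehicle mean was 0.57 ± 0.36 (SD, n = 6), that of 200 mg/kg 0.29 ± 0.55 (SD, n = 6) and that of 2000 mg/kg -1.003 ± 0.22 (SD, n = 5). It fell by 0.74 ± 0.20 on day 8 (adjusted p = 0.00784) and by 1.58 ± 0.21 on day 29 (adjusted p = 1.75e-06). Among 11 Gadd45 partners in stress kinase signalling 1 rose and 2 fell on day 8, 1 rose and 1 fell on day 29 and 0 rose and 0 fell at 200 mg/kg by limma, where 3 had an unadjusted p under 0.05. At the high dose that was 27.3% and 18.2% of them, against 18.6% and 21.6% of all rows. Map2k3, which activates p38, rose by 0.74 ± 0.07 and 0.92 ± 0.07 at the high dose, and Map2k7, which activates JNK, fell by 0.24 ± 0.05 and 0.34 ± 0.05.

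**Figure D2:**
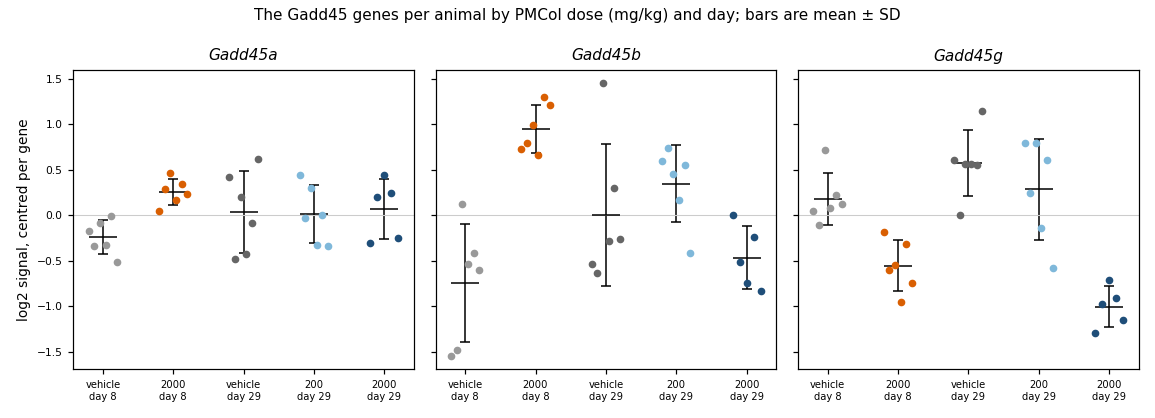
Log2 signal of Gadd45a, Gadd45b and Gadd45g, centred on each row's median over 29 arrays (y axis), per rat in the 5 groups by dose in mg/kg and day (x axis); bars are the mean ± SD. The Gadd45b mean is highest on day 8 at 2000 mg/kg (livers from 0.66 to 1.30), and the Gadd45g mean is lowest on day 29 at 2000 mg/kg.

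Cdkn1a, which encodes the cell cycle inhibitor p21, was highest at the low dose. At day 29 vehicle livers ran from -0.33 to 0.55 (median 0.14) and livers on 200 mg/kg from 0.41 to 0.94 (median 0.80). The high-dose livers of day 29 measured 0.26, 0.34, -1.04, 0.33 and -0.46, all below the lowest low-dose liver. Day 8 vehicle livers ran from -0.71 to 0.26 (median -0.11) and treated livers from -0.60 to 0.07 (median -0.12), with overlap. At 2000 against 200 mg/kg Cdkn1a fell by 0.86 ± 0.21 (adjusted p = 0.0076), the only one of the 10 genes past the threshold between the doses. Of all rows 9.89% passed there, 6.05% as rises and 3.84% as falls. Values of the doses did not overlap for 1 of the 10 genes, Cdkn1a, against 6.12% of all rows. Against vehicle it had 0.61 ± 0.20 at 200 mg/kg (95% interval 0.20 to 1.02, adjusted p = 0.106). That value passed after quantile normalization (adjusted p = 0.0155). At 2000 mg/kg it had -0.03 ± 0.20 on day 8 and -0.25 ± 0.21 on day 29 (adjusted p = 0.959 and 0.461). Of 7 other genes of cyclin-dependent kinase inhibitors and cyclin G2, 0 rose and 1 fell on day 8 and 0 rose and 2 fell on day 29. At the high dose that was 14.3% and 28.6% of them, against 18.6% and 21.6% of all rows. Cdkn1b, which encodes p27, fell by 0.25 ± 0.05 and 0.34 ± 0.05.

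Mdm2, the ubiquitin ligase of the p53 feedback loop, rose on both days of the high dose. Day 8 vehicle livers ran from -0.49 to -0.08 (median -0.25) and treated livers from -0.14 to 0.17 (median 0.08), with 1 treated liver inside the vehicle range. By day 29 vehicle livers ran from -0.45 to 0.17 (median -0.13) and livers on 200 mg/kg from -0.15 to 0.28 (median 0.10). The high-dose livers of day 29 measured 0.12, -0.04, 0.35, 0.48 and 0.50, which overlapped with vehicle. Mdm2 rose by 0.34 ± 0.10 on day 8 (adjusted p = 0.0136), a fold of 1.27, and by 0.42 ± 0.10 on day 29 (adjusted p = 0.00323), a fold of 1.34. At 200 mg/kg it had 0.23 ± 0.10 (adjusted p = 0.262), and the doses differed by 0.19 ± 0.10 (95% interval -0.02 to 0.40, adjusted p = 0.285).

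Ccng1, cyclin G1, a p53 target, rose at both doses on day 29. Day 29 vehicle livers ran from -0.77 to 0.07 (median -0.11), the lowest being replicate 1, and livers on 200 mg/kg from 0.00 to 0.71 (median 0.38). The high-dose livers measured 0.34, 0.21, -0.15, 0.54 and 0.39, and both doses overlapped with vehicle. Ccng1 rose by 0.56 ± 0.12 at 200 mg/kg (adjusted p = 0.00909) and by 0.45 ± 0.13 at 2000 mg/kg (adjusted p = 0.0105). Both calls were lost when only the rats compared were fitted (adjusted p = 0.103 and 0.0676). On day 8 vehicle livers ran from -0.45 to -0.23 (median -0.30) and treated livers from -0.16 to 0.02 (median -0.02), without overlap. That change, 0.27 ± 0.12, did not pass (adjusted p = 0.138), and did when only those rats were fitted (adjusted p = 0.00115) and after quantile normalization (adjusted p = 0.0431).

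Tp53inp1, a p53-induced protein of cell death and autophagy, rose on day 8. Day 8 vehicle livers ran from -1.08 to -0.06 (median -0.37) and treated livers from -0.29 to 0.12 (median -0.02), with overlap. Vehicle replicates 1 and 2 were the lowest of all livers. On day 29 vehicle livers ran from -0.35 to 0.28 (median 0.03), livers on 200 mg/kg from 0.26 to 0.78 (median 0.47), and the high-dose livers measured 0.27, -0.11, -0.53, 0.51 and -0.11. Tp53inp1 rose by 0.49 ± 0.16 on day 8 (adjusted p = 0.0317). The call was lost without vehicle replicate 1 or 2 or without 2000 mg/kg replicate 4, 5 or 6, with adjusted p up to 0.106. At 200 mg/kg it had 0.50 ± 0.16 (adjusted p = 0.0993), with 6 of 6 livers above the vehicle mean, and passed after quantile normalization (adjusted p = 0.0452) and with the replicate number as a block (adjusted p = 0.0432). At 2000 mg/kg on day 29 it had 0.03 ± 0.17 (adjusted p = 0.918).

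Bax, the pore-forming protein of mitochondrial cell death, and Phlda3, a repressor of Akt, passed in no comparison by the rows counted. Bax values ran from -0.37 to 0.39 over all livers. Its changes were 0.05 ± 0.09 on day 8 and -0.11 ± 0.09 on day 29 at 2000 mg/kg, and 0.15 ± 0.09 at 200 mg/kg. The other Bax row fell by 0.27 ± 0.07 at 2000 mg/kg on day 29 (adjusted p = 0.00732). The rows correlated at r = 0.30 over 29 livers, so Bax is uncertain. Phlda3 values ran from -0.85 to 0.62, with changes of -0.02 ± 0.18, -0.39 ± 0.19 and -0.01 ± 0.18 in the same order.

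**Figure D3:**
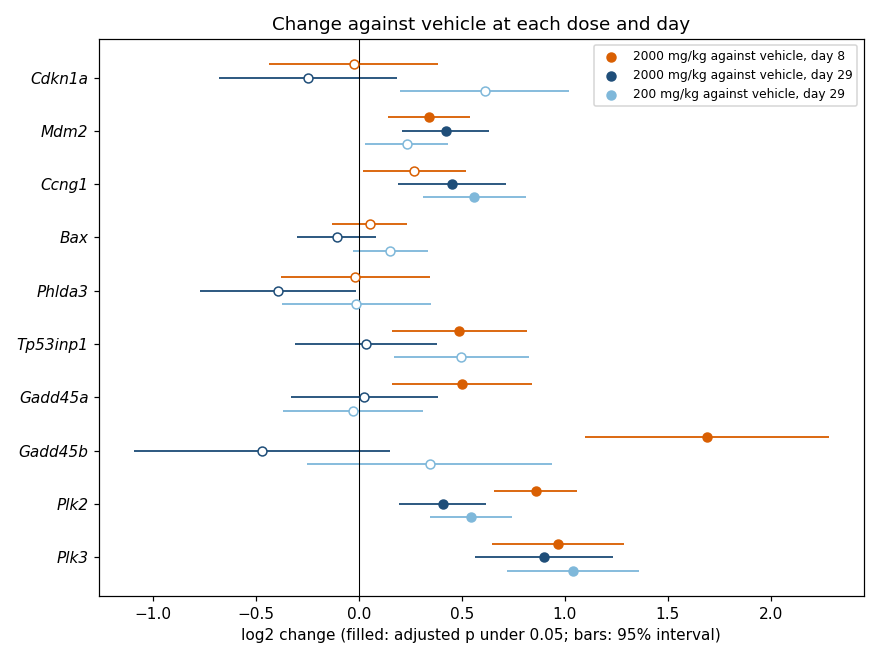
Log2 change against vehicle (x axis) of each gene (y axis) at 2000 mg/kg on day 8, 2000 mg/kg on day 29 and 200 mg/kg on day 29, with 95% intervals; filled points passed the test. Gadd45b on day 8, at 1.69, is the largest value, and Plk3 lies between 0.90 and 1.04 in all 3.

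When the 5 groups were put in order of their means, 2 of 40 pairs of neighbouring groups passed the test. Plk2 on day 8 at 2000 mg/kg stood above 200 mg/kg on day 29 by 0.47 (adjusted p = 0.000916, limma). Those groups differ in both dose and day, which cannot be told apart in that pair. Within day 29, Plk2 at 2000 against 200 mg/kg had -0.14 ± 0.10 (adjusted p = 0.471). The other was the rise of Tp53inp1 from vehicle to 2000 mg/kg on day 8, already given above. The same means set the order, so neighbours have small gaps by construction and the count does not show that groups are alike. The highest mean was that of 2000 mg/kg on day 8 for Gadd45a (0.26), Gadd45b (0.95), Plk2 (0.68) and Plk3 (0.68). It was that of 200 mg/kg for Cdkn1a (0.74), Ccng1 (0.37), Bax (0.16) and Tp53inp1 (0.47). It was that of 2000 mg/kg on day 29 for Mdm2 (0.28) and of vehicle on day 29 for Phlda3 (0.09).

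Of 24 other p53 targets measured, 8 rose and 2 fell on day 8 (median 0.07), 8 rose and 3 fell on day 29 (median 0.11) and 2 rose and 0 fell at 200 mg/kg. That was 41.7%, 45.8% and 8.33% of them, against 18.6%, 21.6% and 2.78% of all rows. The falls were those of Apaf1 (-0.23 ± 0.08) and Notch1 (-0.29 ± 0.05) on day 8. On day 29 they were those of Aen (-0.28 ± 0.08), Pmaip1 (-0.19 ± 0.07) and Xpc (-0.24 ± 0.08). The lists overlap: Pmaip1 is counted again below in the BCL2 family, and Apaf1 among the caspase and apoptosome genes. Fas, a death receptor, rose by 0.54 ± 0.08 (adjusted p = 2.49e-05) and 0.83 ± 0.09 (adjusted p = 6.68e-08) at the high dose. Ephx1, an epoxide hydrolase that xenobiotic receptors also raise, rose by 0.90 ± 0.07, 0.83 ± 0.07 and, at 200 mg/kg, 0.51 ± 0.07. Ddit4, an inhibitor of mTOR, rose by 0.94 ± 0.16 on day 8 (adjusted p = 5.84e-05). Rrm2b, a ribonucleotide reductase subunit, rose by 0.51 ± 0.10 on day 8 (adjusted p = 0.000271) and by 0.73 ± 0.10 on day 29 (adjusted p = 3.75e-06). Of 15 regulators of p53, 1 rose and 2 fell on day 8, 0 rose and 2 fell on day 29 and 0 rose and 0 fell at 200 mg/kg by limma, where 0 had an unadjusted p under 0.05. At the high dose that was 20% and 13.3% of them, against 18.6% and 21.6% of all rows. The coactivator Crebbp fell by 0.24 ± 0.06 and 0.29 ± 0.06.

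The BCL2 family, to which Bax belongs, had 13 other genes measured, of which 1 rose and 3 fell on day 8, 2 rose and 3 fell on day 29 and 1 rose and 1 fell at 200 mg/kg. Bcl2l11, which encodes the death activator BIM, rose by 0.87 ± 0.16, 0.74 ± 0.17 and 0.59 ± 0.16. Bmf, a related activator, fell by 0.72 ± 0.08, 0.50 ± 0.08 and 0.36 ± 0.08. Of 10 caspase and apoptosome genes 2 rose and 4 fell on day 8, 3 rose and 3 fell on day 29 and 0 rose and 2 fell at 200 mg/kg. Birc2, an inhibitor of apoptosis, fell by 0.51 ± 0.11, 0.91 ± 0.12 and 0.64 ± 0.11. Its paralog Birc3 went the other way at 2000 mg/kg. Birc3 rose by 0.28 ± 0.08 on day 8 and 0.50 ± 0.08 on day 29, and was not called at 200 mg/kg. In these comparisons 18.6%, 21.6% and 2.78% of all rows passed.

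Within groups the members varied largely apart. With group means removed, the median Pearson r over the 45 pairs of genes was 0.09 across 29 livers, and 14 pairs were below 0. The highest was Cdkn1a with Plk3 at 0.70 (rho 0.68), before Cdkn1a with Tp53inp1 at 0.57 and Tp53inp1 with Gadd45b at 0.54. Plk2 had -0.39 with Gadd45b and -0.33 with Plk3, although Plk2 and Plk3 had 0.71 over the values as deposited. These values share arrays and their normalization and are descriptions.

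**Figure D4:**
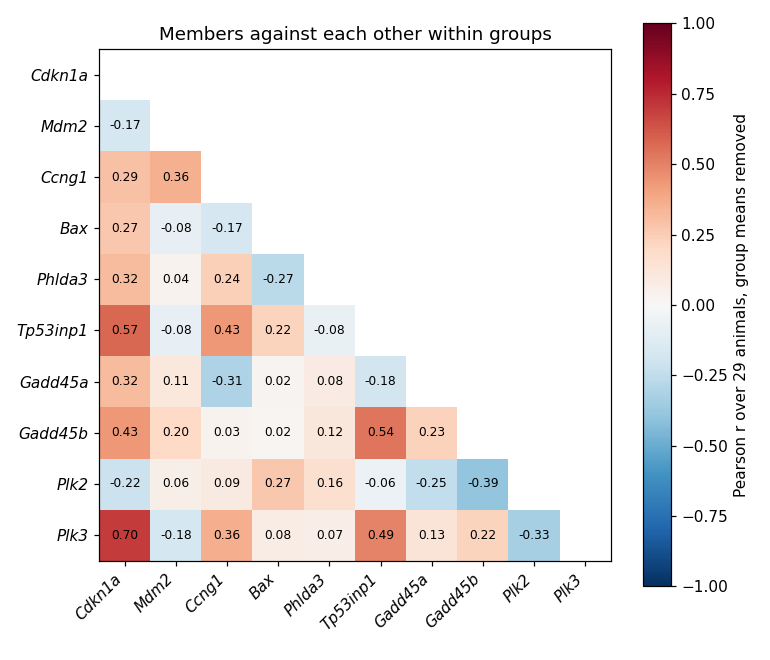
Pearson r between each pair of the 10 genes over 29 livers after each group's mean was removed; both axes list the genes and colour gives r. Cdkn1a with Plk3 is highest at 0.70 and Gadd45b with Plk2 lowest at -0.39.

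The rows most like each member, by the same measure over 29 livers, were Zfp622 (0.91), Ube2g2 (0.86), Foxo3 (0.80) for Cdkn1a and Foxo3 (0.81), Cpeb4 (0.78), Mapk6 (0.78) for Plk3, so Foxo3 stood in both. They were Esrrg (0.71), Neto2 (0.68), Slc5a3 (0.67) for Plk2 and Nr0b2 (0.75), Cox8b (0.71), Alox12 (0.69) for Gadd45b. For Gadd45a they were Rpl7a (0.79), Snrpg (0.77) and another row of Rpl7a, and for Tp53inp1 Slc25a32 (0.86), Zfp189 (0.86), Herpud1 (0.85). Mdm2 was nearest to Cnot2 (0.82), Ccng1 to Asnsd1 (0.86), Bax to Mta2 (0.69) and Phlda3 to Cpt1b (0.70).

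Other transcripts moved with the same comparisons. Immediate early genes, which answer growth factors within minutes, fell in 5 of 22 cases on day 8 and 10 on day 29 at 2000 mg/kg, and in 3 at 200 mg/kg. Egr1 fell by 2.07 ± 0.31 on day 8 and fell by 2.91 ± 0.33 on day 29 at the high dose. Their mean per liver ran from 0.18 to 0.68 in vehicle and from -0.63 to -0.19 in high-dose livers of day 29. Within groups its r was 0.57 with Gadd45a, 0.40 with Gadd45b, 0.03 with Plk2 and -0.10 with Plk3. Macrophage markers fell in 11 of 11 cases on day 8, where their mean ran from 0.38 to 1.32 in vehicle and from -0.66 to 0.11 in treated livers. They fell in as many between the vehicle groups. Erythrocyte markers fell in 2 of 5 cases on day 8, T, B and NK cell markers in 5 of 11, endothelial markers in 2 of 4 and hepatocyte genes in 5 of 9. Stellate cell markers fell in 9 of 10 cases on day 29 at 2000 mg/kg, where their mean ran from 0.04 to 0.56 in vehicle and from -0.47 to -0.30 in treated livers. Of 3 bile duct markers 1 rose on each day, and neutrophil markers passed in 0 of 8 cases at 2000 mg/kg by limma on either day, with an unadjusted p under 0.05 in 0 on day 8 and 0 on day 29. Of all rows 9.32% fell on day 8 and 9.55% on day 29 at 2000 mg/kg, 1.42% at 200 mg/kg and 1.77% between the vehicle groups. Centred values do not show which markers are near background. In whole liver, fewer cells of a type and less RNA per cell cannot be told apart, and the part of these shifts in the members' changes was not tested.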

How the data were processed

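Each of the 29 livers gave 1 biotin-labelled Affymetrix array, per the labels' protocols. The values are on a log2 scale, as the authors deposited them in a single table of 27342 rows, and every row has its median over the arrays at 0. PLIER and MAS5 are named in the submitters' processing notes, which give neither version nor role. How arrays were normalized to each other, and whether an offset was added before the log, is not given in the sources used here; an offset shrinks the fold of a weakly expressed gene.

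The platform annotation gave 1 symbol for 15097 rows, several for 323 and none for 11922. A gene with several rows was counted by its lowest-numbered row. All 10 members matched the RefSeq gene table (GRCr8) by gene identifier, and 8 had an upstream window. Comparisons used limma 3.58.1 in R 4.3.3 on the values as deposited, as 5 group means without covariates, with two-sided p-values and Benjamini-Hochberg adjustment. The step was tested on simulated data. Members, lists and motifs were chosen with earlier results of these data known. The text names all members and up to 3 called genes of each other list per comparison. It also names the 3 rows most like each member, but only the nearest for Mdm2, Ccng1, Bax and Phlda3. Values of Plk1 and Plk4 against vehicle were outside that rule and chosen after they were seen. So were the falls of Mcm5, Apaf1, Notch1, Aen, Pmaip1 and Xpc, and the day 8 rise of Rrm2b. Alternatives were another normalization, array weights, a stricter threshold, a replicate block, fits of only the animals compared, and fits without single animals. A further fit left out both vehicle day 29 replicates 1 and 2. Plots used matplotlib 3.10.9.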

Additional observations from a re-analysis of the deposited data

Results flagged for a closer look

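In 4 of the 55 sets of values tested a single liver stood apart from its group, and chance flags about 1 in 20. Phlda3 was highest in vehicle day 8 replicate 2 (0.62) and lowest in 2000 mg/kg day 8 replicate 2 (-0.72). On day 29 at 2000 mg/kg Bax was lowest in replicate 3 (-0.37) and Plk2 highest in replicate 4 (0.36). The high-dose effect on Gadd45b differed between the days by -2.16 (adjusted p = 0.0144, limma interaction).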

How the results depend on the processing

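With an adjusted p under 0.01 the count of genes called was 3 for 2000 mg/kg on day 8 and 0 for the change between days, by limma. Of all rows 3244 and 28 passed there, against 5096 and 212 under 0.05. Quantile normalization gave 5 at 200 mg/kg (Cdkn1a and Tp53inp1 added) and 2 between the doses (Tp53inp1 added). There 786 and 2815 of all rows passed, against 761 and 2704 in the main fit. For 2000 mg/kg on day 8 it gave 7 (Ccng1 added). Fitting only the animals compared gave 2 between the doses (Gadd45b added), 7 on day 8 (Ccng1 added), and 3 and 2 at 2000 and 200 mg/kg on day 29 (Ccng1 lost from both). Between the doses 2137 rows passed in that fit. Between the vehicle groups array quality weights gave 1 (Tp53inp1), and leaving out vehicle day 29 replicates 1 and 2 gave 2 (Tp53inp1 and Gadd45b). The rows that passed in the whole table also increased, to 1773 and 1374, against 746 in the main fit. With the replicate block the counts were 6 for 2000 mg/kg on day 8, 4 for 2000 mg/kg on day 29 and 4 at 200 mg/kg. Between the vehicle groups the count was 1, and Tp53inp1 was added there and at 200 mg/kg. Of all rows 5008, 5964, 780 and 799 passed in the same order, against 5096, 5910, 761 and 746 in the main fit. Same-numbered animals of different groups correlated at -0.28 to 0.30 over 56 pairs, with 12 pairs above 0.1. Animals with different numbers were not compared, so whether the number marks a shared block was not tested. Counting Bax by its other row, an alternative chosen after seeing the data, changed the count only by that row's fall on day 29. Without single animals the counts ran from 4 to 6 for 2000 mg/kg on day 8, 4 to 4 on day 29, 3 to 3 at 200 mg/kg, 1 to 2 between the doses, 0 to 1 between the vehicle groups and 1 to 1 for the change between days. Single genes gained a call without 1 animal in 3 cases: Gadd45b between the doses without 200 mg/kg day 29 replicate 6 (adjusted p = 0.0416), Tp53inp1 between the doses without 2000 mg/kg day 29 replicate 4 (0.0307) and Tp53inp1 between the vehicle groups without day 29 replicate 2 (0.0411). Values of uncalled genes changed sign as follows, and the cause was not tested. Array quality weights did so for Bax between the vehicle groups (-0.0054). They also did for Phlda3 on day 8 (0.019) and Tp53inp1 on day 29 (-0.0039) at 2000 mg/kg. Leaving out vehicle day 29 replicates 1 and 2 did so for Bax between the vehicle groups (-0.035) and Phlda3 at 200 mg/kg (0.000391). It also did for Gadd45a (-0.0093) and Tp53inp1 (-0.12) at 2000 mg/kg on day 29. Quantile normalization did so for Mdm2 in the change between days (-0.047). Without single animals, Bax ran from -0.000601 to 0.12 and Phlda3 from -0.027 to 0.18 between the vehicle groups. On day 8 at 2000 mg/kg Cdkn1a ran from -0.13 to 0.061 and Phlda3 from -0.082 to 0.13. On day 29 at 2000 mg/kg Gadd45a ran from -0.078 to 0.14 and Tp53inp1 from -0.092 to 0.17. At 200 mg/kg Gadd45a ran from -0.13 to 0.085 and Phlda3 from -0.086 to 0.077. Between the doses Gadd45a ran from -0.038 to 0.15. In the change between days Cdkn1a ran from -0.34 to 0.0091 and Plk3 from -0.19 to 0.025.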
